A study of Rattus norvegicus with 6 samples.

Results

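The Dlk1-Dio3 cluster is an imprinted stretch of miRNA genes that lies, in the rat, between Meg3 and Dio3 on chromosome 6. Its members were taken by name: every row of the miRNA tables whose rno-miR number was in a list of 42 numbers, with any a or b suffix and all arms. This gave 83 of the 765 miRNA rows in the tables, and these come from 44 hairpins. The hairpins spanned 282 kb, chr6:134298084-134579838 in the RefSeq annotation of GRCr8, with 80 rows on the plus strand and 3 on the minus strand (both arms of miR-299b, and miR-409b). The gene order in that annotation was Dlk1, Meg3, Mir770, Rtl1, Mir127, Mir379, Mir410 and Dio3.

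In placental mammals the protein-coding genes of this locus are expressed from the paternal chromosome, and the long noncoding RNAs Meg3, Rian and Mirg, together with the miRNAs, from the maternal one. The miRNAs on the Meg3 side include several that lie antisense to Rtl1, a gene derived from a retrotransposon, and the larger group on the Dio3 side is cut from long transcripts that also carry Mirg. A miRNA guides Argonaute to messenger RNAs mainly through its seed, and members of this cluster, miR-134 among them, are known from rodent neurons for roles in dendrite growth and synapses.

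Hippocampus came from Sprague-Dawley rats whose age is given as 7 weeks. The B[a]P group was given benzo[a]pyrene, a polycyclic aromatic hydrocarbon formed in combustion, at 2 mg/kg daily by oral gavage in corn oil, and the control group an equal volume of corn oil alone. The labels of the RNA-seq libraries give 7 weeks of gavage, and no label ties the age to the start or the end of it. Each group had 1 library per assay (miRNA-seq, RNA-seq and reduced representation bisulfite sequencing), so 4 libraries were compared here and the methylation libraries were not used. The labels do not say whether a library holds 1 animal or pooled tissue, nor whether the assays used the same animals, and the treatment text speaks of a treated and a control rat in the singular. With 1 library per group there was no test: each difference below is between 2 libraries, not between conditions, and has no replicate check.

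The miRNA values are reads per 1000000 reads of the library total (RPM), and they are whole multiples of 1 read. The B[a]P library had 14360375 reads in total, against 16266392 in the control library. Of these, 46.9% were assigned to miRNAs in the B[a]P library and 37.1% in the control library, and on the RPM scale 322 of the 332 miRNAs at 10 RPM or more in either library (the floor used throughout) had the higher value with B[a]P. Over these 332 the median ratio was 1.29-fold, B[a]P over control, a log2 ratio of 0.36 computed on RPM plus 1. Ratios of cluster members are given below against this median as well as on the deposited scale. No value above 0 was under 10 reads in either library, so a row listed at 0 may have had a few reads. Intervals are exact 95% binomial intervals and cover counting error only. No molecular identifiers are named for these reads, so duplicate reads could not be set aside and the intervals may be too narrow.

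Markers of the hippocampus were present in both RNA-seq libraries: Prox1, Calb1, Neurod6 and Wfs1, which mark its granule and pyramidal cells, summed to 184 FPKM in B[a]P and 174 FPKM in control. Markers of other cell types did not move alike in the assays. All 7 of 7 choroid plexus miRNAs examined, miR-204-5p and miR-1298 among them, differed more than 2-fold and were higher with B[a]P. Their sum was 8909 RPM against 1120 RPM in the control library. Of these, miR-1912-3p, miR-204-3p and miR-34b-5p reached the floor only in the B[a]P library. miR-204-5p and miR-204-3p are arms of the same hairpin, so the 7 rows are not independent of each other. In RNA-seq the direction was the opposite, with 6 of 6 choroid plexus transcripts, Ttr among them, more than 2-fold lower with B[a]P. Their sum was 64.3 FPKM in B[a]P against 3400 FPKM in control. Of these, Kl, Aqp1 and Cldn2 reached 1 FPKM only in the control library. Both lists were chosen with earlier results of these data known, so their counts are a description only. Of all miRNAs above the floor 3.92% were 2-fold higher with B[a]P, and of all genes above 1 FPKM 0.52% were 2-fold lower. The part of these markers in the results below was not tested, except where the cluster is also given without the choroid plexus miRNAs. Oligodendrocyte markers also differed in direction, with a median log2 ratio of 0.84 for 2 miRNAs and −0.22 for 6 transcripts. This limits how far values of the RNA-seq libraries can be set beside those of the miRNA-seq libraries. In bulk tissue, fewer cells of a type and less RNA per cell cannot be told apart, and why the assays differed was not tested.

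The members that carried most of the cluster's reads are shown first, as RefSeq mature sequences written 5′ to 3′ with the seed (bases 2 to 8) in capitals. A sequence was found for 81 of the 83 members. miR-127-5p and miR-136-5p are named only. Together these 11 hold most of the reads, and their seeds all differ, although miR-379-5p and miR-411-5p, from neighbouring hairpins, share GUAGAC within theirs.
miR-127-3p: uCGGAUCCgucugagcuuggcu
miR-411-5p: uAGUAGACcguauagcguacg
miR-379-5p: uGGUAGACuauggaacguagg
miR-434-5p: aGCUCGACucaugguuugaacca
miR-136-3p: cAUCAUCGucucaaaugagucu
miR-300-3p: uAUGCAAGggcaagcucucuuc
miR-541-5p: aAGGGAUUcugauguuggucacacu
miR-323-3p: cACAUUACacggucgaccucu
miR-433-3p: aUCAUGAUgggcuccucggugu
miR-543-3p: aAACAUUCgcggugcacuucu
miR-370-3p: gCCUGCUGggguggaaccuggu

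Cluster members took 406909 reads in the B[a]P library and 393000 in the control library. That was 6.04% (6.02 to 6.06) of all miRNA reads in the B[a]P library and 6.51% (6.49 to 6.53) in the control library, a share 0.928 times as large (0.924 to 0.932). With the choroid plexus miRNAs taken out of the denominator the shares were 6.16% in B[a]P and 6.53% in control. On the RPM scale the order was the reverse, with 28336 RPM in B[a]P and 24160 RPM in control. The cluster's direction therefore depended on the denominator.

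One member dominated. miR-127-3p, cut from a hairpin antisense to Rtl1, had 13237 RPM in the B[a]P library and 11452 RPM in the control library, rank 8 of the whole table by mean RPM. It alone held 46.7% of the cluster's reads in B[a]P and 47.4% in control, and the 10 most abundant members held 80.1% in B[a]P and 80.6% in control. In its hairpin, shown because it gave more reads than all other hairpins of the cluster together on the Meg3 and Rtl1 side, the 3p arm in capitals lies after the loop.
Mir127, chr6:134328454-134328550, plus strand, GRCr8: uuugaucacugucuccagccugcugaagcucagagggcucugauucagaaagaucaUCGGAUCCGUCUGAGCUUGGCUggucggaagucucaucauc

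The next members were far less abundant. miR-411-5p had 1748 RPM in B[a]P and 1458 RPM in control, and miR-379-5p 1399 RPM in B[a]P and 1292 RPM in control. miR-434-5p had 1384 RPM in B[a]P and 1182 RPM in control, and miR-136-3p 1238 RPM in B[a]P and 1055 RPM in control. With miR-127-3p these made up the 5 members at 1000 RPM or more in both libraries. miR-300-3p followed with 1029 RPM in B[a]P and 831 RPM in control, and miR-541-5p with 832 RPM in B[a]P and 786 RPM in control. miR-323-3p had 664 RPM in B[a]P and 516 RPM in control, and miR-543-3p 586 RPM in B[a]P and 429 RPM in control. Each of these 9 members had the higher RPM in B[a]P on the deposited scale, but relative to the table's median ratio all except miR-323-3p and miR-543-3p were lower. miR-433-3p had 582 RPM in B[a]P and 472 RPM in control. miR-127-5p had 499 RPM in B[a]P and 451 RPM in control, and miR-370-3p had 391 RPM in B[a]P and 278 RPM in control.

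**Figure D1:**
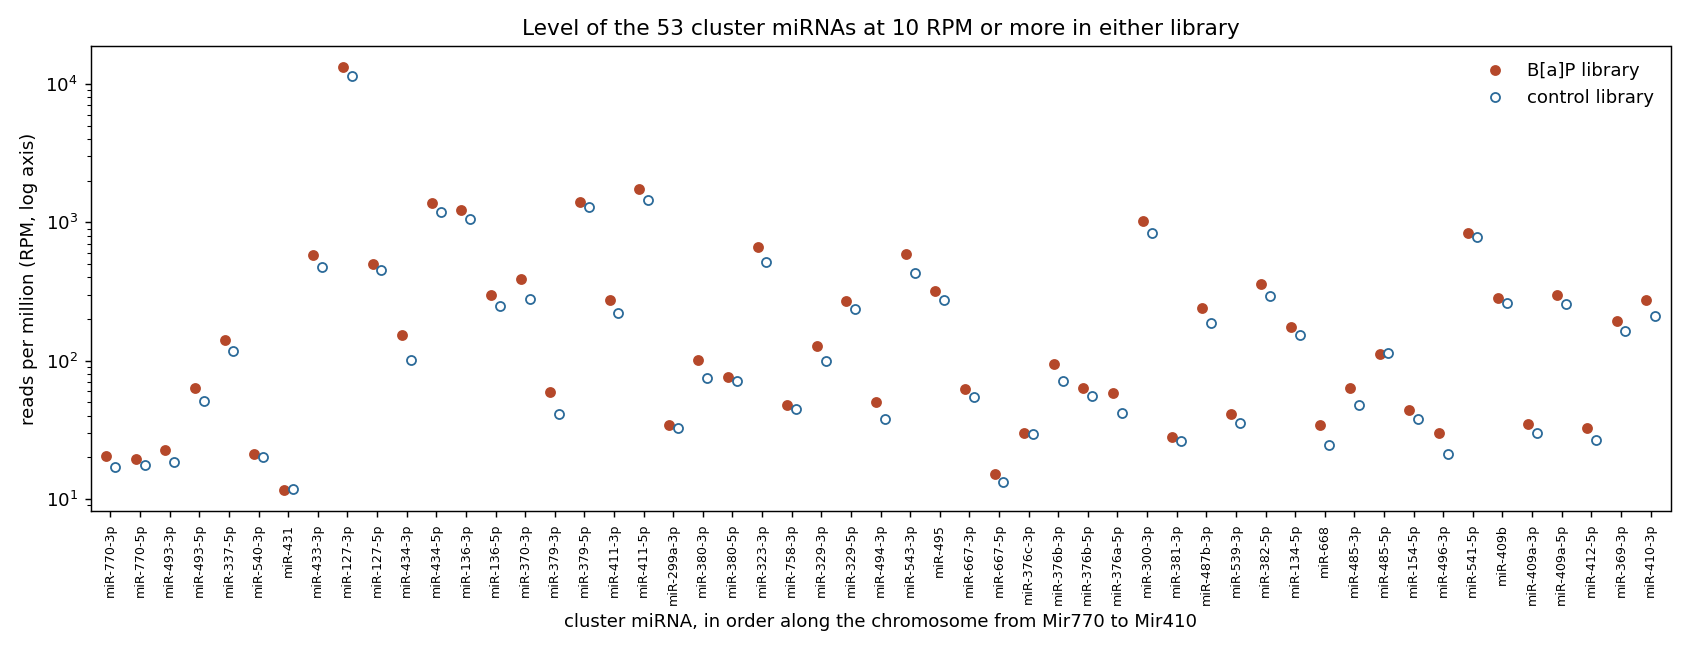
RPM (log axis) of the 53 cluster miRNAs at 10 RPM or more in either library, in order along the chromosome, with 1 filled point for the B[a]P library and 1 open point for the control library. miR-127-3p stands at 13237 RPM in B[a]P and 11452 RPM in control, and the paired points lie close together across the whole range of levels.

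The rest of the cluster was spread over a wide range of levels. Of the 83 members, 53 reached 10 RPM in either library and 28 reached 100 RPM. Another 19 were above 0 in at least 1 library but under the floor, and 11 were listed at 0 in both. One of the 19, miR-544-3p, was listed at 0 in the B[a]P library and had 15 reads in the control library. Levels of the 53 members in B[a]P and control gave a Pearson r of 0.998 on the log10 scale, a description across miRNAs that share a library and a counting step.

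The difference between the libraries was small and similar along the cluster. The median log2 ratio of the 53 members was 0.24, with a range of −0.03 to 0.59, beside 0.37 for the 279 other miRNAs above the floor. The quartiles of the members' log2 ratios were 0.16 and 0.36, against 0.25 and 0.48 for the other miRNAs. Their SD was 0.14, against 0.52 for the other miRNAs, a value that was 0.28 when the 7 choroid plexus miRNAs were left out and 0.20 over the 266 other miRNAs within 2-fold. On the deposited scale 51 of 53 members had the higher value with B[a]P, while 40 of 53 were below the median ratio of the table, where 50% of all miRNAs lie by construction. No member was 2-fold higher or lower in B[a]P, in a table where 3.92% of the miRNAs above the floor were 2-fold higher and 0% 2-fold lower. At 1.5-fold, where 10.8% of the table was higher, 52 of the 53 members stayed within the limit.

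Counting error was small beside these differences for the abundant members. The interval of the ratio lay wholly above 1 for 43 members, below 1 for 0 and held 1 for 10, in a table where 89.2% of the miRNAs lay above 1 and 1.2% below. Set against the table's median fold of 1.29, the interval lay below it for 28 members, where 28.9% of the table did, and above it for 4, where 28% of the table did. Among the other miRNAs 24.4% lay below and 31.9% above. miR-127-3p, with the narrowest interval, was 1.16-fold higher in B[a]P (1.15 to 1.16), below the table's median fold.

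**Figure D2:**
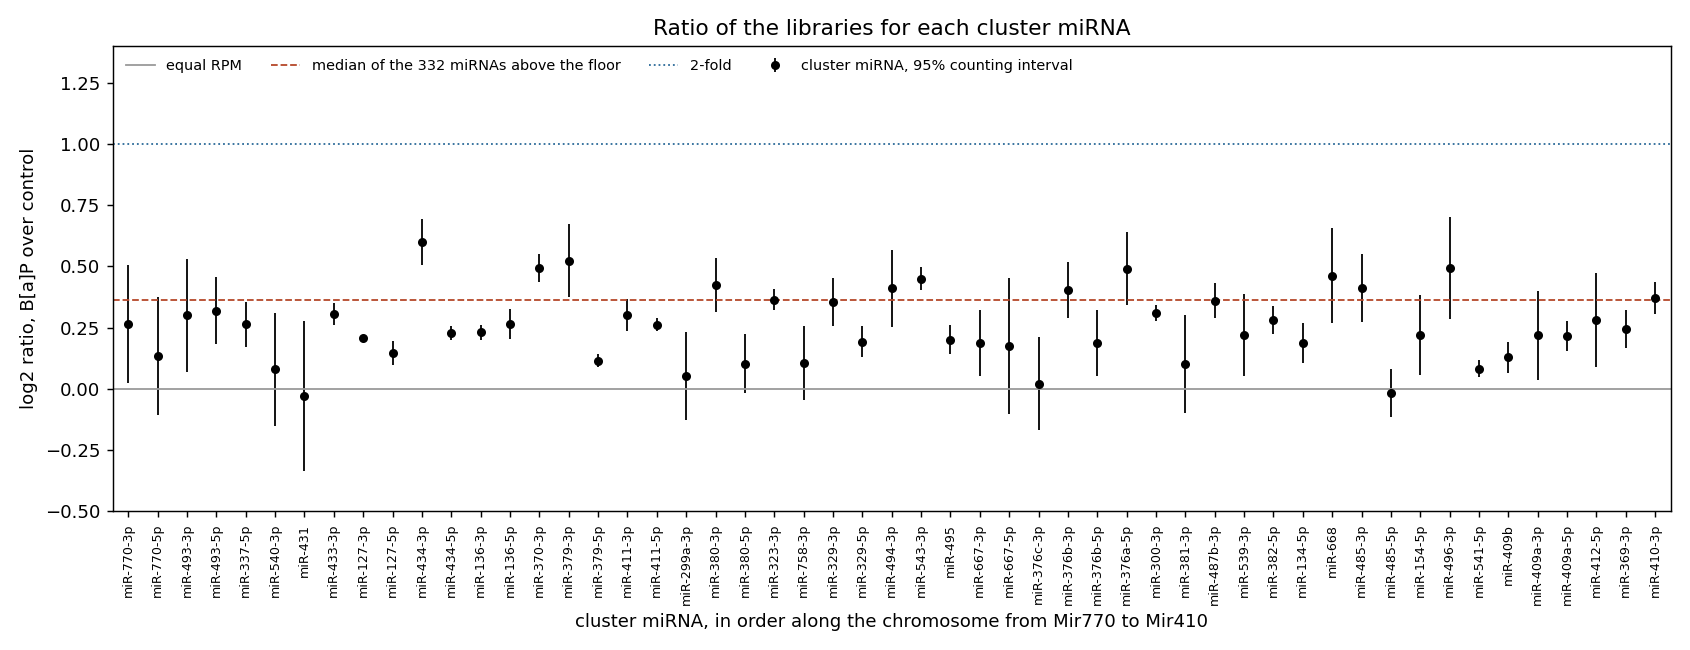
The log2 ratio of RPM, B[a]P over control, for each of the 53 cluster miRNAs above the floor, in order along the chromosome. Bars are 95% counting intervals of 1 library against 1, the dashed line is the median of the 332 miRNAs above the floor, and every point lies under the dotted 2-fold line.

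The 4 members above the table's median by their counting interval were miR-434-3p, miR-379-3p, miR-370-3p and miR-543-3p. miR-434-3p had 2211 reads in B[a]P and 1653 reads in control, 1.52-fold per total (1.42 to 1.62), and was the single member past 1.5-fold, although with the antisense row miR-3543 counted as well it was at 1.39-fold. miR-379-3p had 59.1 RPM in B[a]P and 41.1 RPM in control, 1.44-fold (1.30 to 1.59). miR-370-3p was 1.41-fold higher (1.35 to 1.46) and miR-543-3p 1.37-fold (1.32 to 1.41). Both miR-434-3p and miR-379-3p are the lesser arm of their hairpin in these tables. Close to them, miR-376a-5p had 58.5 RPM in B[a]P and 41.6 RPM in control, and miR-496-3p had 29.9 RPM in B[a]P and 21.2 RPM in control. The intervals of both held the table's median fold.

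At the other end the libraries differed by less than counting error. miR-431 had 11.6 RPM in B[a]P and 11.9 RPM in control, 0.980-fold (0.792 to 1.21), and miR-485-5p had 112 RPM in B[a]P and 113 RPM in control, 0.989-fold (0.924 to 1.06). miR-376c-3p had 30.01 RPM in B[a]P and 29.6 RPM in control, 1.01-fold (0.889 to 1.16), and miR-299a-3p 34.1 RPM in B[a]P and 32.8 RPM in control. miR-540-3p had 21.2 RPM in B[a]P and 20.1 RPM in control. These 5 intervals held 1 and lay below the table's median fold. miR-541-5p was also among the 6 lowest ratios, but its depth placed it above 1, at 1.06-fold (1.03 to 1.09).

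**Figure D3:**
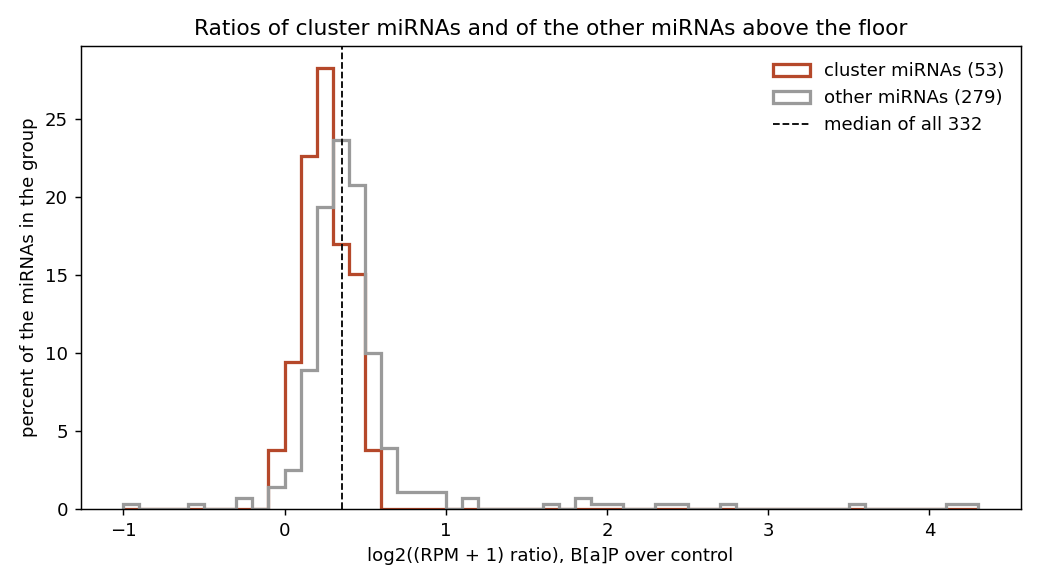
Percent of miRNAs in each bin of log2 ratio (RPM plus 1, B[a]P over control), for the 53 cluster miRNAs and for the 279 other miRNAs above the floor. The cluster miRNAs fill the range from −0.03 to 0.59 with a median of 0.24, and the other miRNAs have a median of 0.37 and a long upper tail.

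Both sides of the cluster were close in their ratios. The Meg3 and Rtl1 side, from Mir770 to Mir136, held 62.5% of the cluster's reads in B[a]P and 63.0% in control. Its 14 members above the floor had a median log2 ratio of 0.24, and 1 of them was above the table's median, where 50% of all miRNAs lie. The side from Mir379 to Mir410 held 36.1% of the reads in B[a]P and 35.8% in control, and its 38 members above the floor had a median log2 ratio of 0.23, with 11 above the table's median. miR-370, which lies between them, took 1.39% of the cluster's reads in B[a]P and 1.16% in control. Rank along the chromosome and log2 ratio gave a Pearson r of 0.02 over the 53 members, level and ratio 0.08, and GC content and ratio −0.14 over the 51 with a sequence.

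Rows named 5p had a median log2 ratio of 0.20 (20 rows, 1 above the table's median, miR-376a-5p), against 0.38 for the 120 other miRNA rows named 5p, of which 55.8% were above it. Rows named 3p had a median of 0.30 (29 rows, 11 above), against 0.37 for the 123 other 3p rows, of which 53.7% were above.

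Beside the cluster, 6 miRNAs known from neurons were read, miR-124-3p, miR-128-3p and miR-137-3p among them. Their median log2 ratio was 0.29 and 1 was above the table's median, where 50% of the miRNAs above the floor lie. All 6 had the higher RPM in B[a]P, and their sum was 37179 RPM in B[a]P and 29160 RPM in control. The 2 oligodendrocyte miRNAs, miR-219a-5p and miR-338-3p, had a median of 0.84, and the endothelial miR-126a-3p had 0.37. Of 6 blood and microglia miRNAs 5 were above the floor, with a median of 0.26 and a range of −0.23 to 0.47. Among those 5, 1 was above the table's median, and the lowest was miR-451-5p. The part of these cell types in the cluster's ratios was not tested.

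Within hairpins, the balance of the arms could be compared without regard to scaling. Of 39 hairpins with both arms listed, 13 had both arms above the floor. The 5p arm dominated in both libraries for 7 of them, the 3p arm for 5, and Mir770 lay on the border with a 5p share of 48.6% (44.4 to 52.8) in B[a]P and 50.9% (46.7 to 55.1) in control. The intervals of the libraries overlapped for 9 of the 13 hairpins and lay apart for 4, where those of 16.9% of all 71 hairpins with both arms above the floor lay apart.

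The 4 hairpins whose intervals did not overlap all had a smaller 5p share in B[a]P, a pattern found in 9.86% of all 71 hairpins, and 7.04% had a larger one. Among the 58 other hairpins the intervals lay apart for 8, with the 5p share smaller in B[a]P for 3 and larger for 5. No test was made of this difference. In Mir485 the 5p share was 63.8% (61.8 to 65.6) in B[a]P and 70.3% (68.5 to 72.0) in control, the widest gap of the 13. There miR-485-3p had 63.8 RPM in B[a]P and 48.0 RPM in control, while miR-485-5p hardly differed on the deposited scale. Set against the table's median fold, the interval of miR-485-3p held it and that of miR-485-5p lay below it. In Mir380 the 5p share was 43.1% (41.2 to 45.1) in B[a]P and 48.7% (46.6 to 50.7) in control, with miR-380-3p at 100 RPM in B[a]P and 74.9 RPM in control and miR-380-5p at 76.2 RPM in B[a]P and 71.0 RPM in control. Mir434 had a 5p share of 89.99% in B[a]P and 92.1% in control, both without the reads of miR-3543, and Mir379 95.9% in B[a]P and 96.9% in control. The arms of the first 2 are shown, seeds in capitals, because each arm has a seed of its own.
miR-485-5p: aGAGGCUGgccgugaugaauuc
miR-485-3p: cAUACACGgcucuccucucuuc
miR-380-5p: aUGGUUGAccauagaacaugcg
miR-380-3p: uAUGUAGUaugguccacaucu

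The other balanced hairpins had overlapping intervals. The 5p share of Mir376b was 40.2% (38.1 to 42.2) in B[a]P and 43.8% (41.7 to 46.0) in control. Its arms, miR-376b-3p and miR-376b-5p, had 94.7 and 63.6 RPM in B[a]P and 71.6 and 55.8 RPM in control. Mir329 had a 5p share of 67.9% in B[a]P and 70.3% in control, with miR-329-5p at 268 RPM in B[a]P and 235 RPM in control and miR-329-3p 1.28-fold higher in B[a]P (1.20 to 1.37). The share was nearly equal for Mir493, at 73.7% in B[a]P and 73.5% in control. Its arms had 63.7 RPM in B[a]P and 51.1 RPM in control for miR-493-5p, and 22.7 RPM in B[a]P and 18.4 RPM in control for miR-493-3p. Mir770 had 19.4 RPM in B[a]P and 17.7 RPM in control for its 5p arm, and 20.5 RPM in B[a]P and 17.1 RPM in control for its 3p arm.

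**Figure D4:**
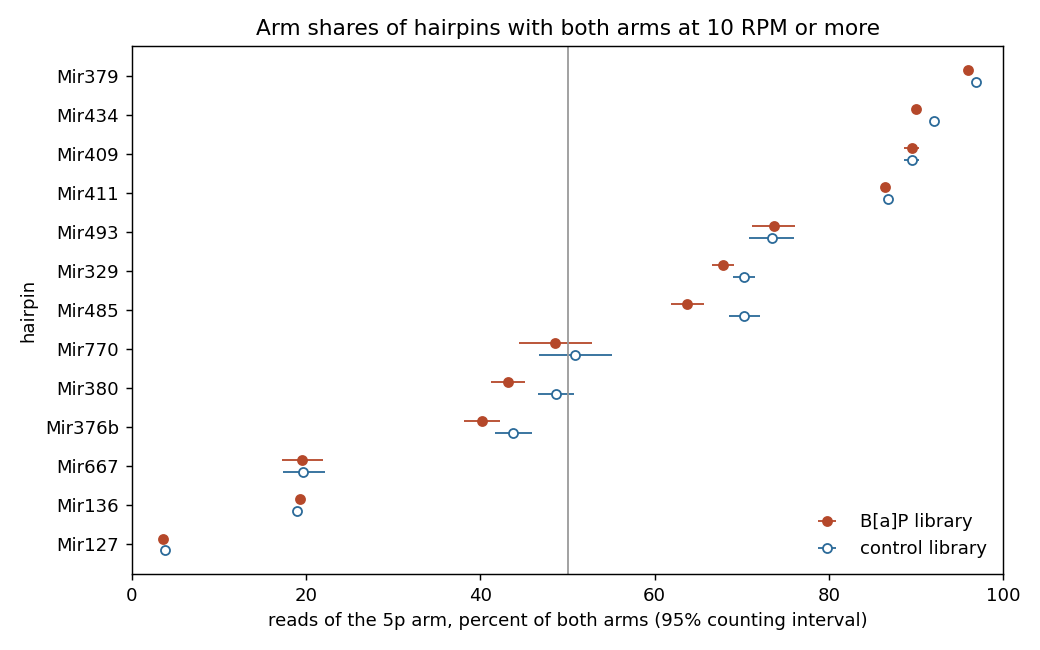
Share of the 5p arm in the reads of both arms, in percent with exact 95% counting intervals, for the 13 hairpins with both arms above the floor, with the B[a]P library above the control library. Mir485 has the widest gap, 63.8% in B[a]P and 70.3% in control, and Mir770 lies across the 50% line.

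Several members share sequence with rows on the opposite strand, and this bears on which values can be read. The sources used here do not say whether reads were assigned by strand, so reads of such a pair cannot be told apart. The case with the most reads is miR-434-3p, the member with the highest ratio: all 22 of its bases are the reverse complement of miR-3543, a row outside the name list that is annotated on the minus strand. Capitals mark the shared stretch in each pair.
miR-434-3p: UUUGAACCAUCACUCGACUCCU
miR-3543: cAGGAGUCGAGUGAUGGUUCAAA
miR-382-3p: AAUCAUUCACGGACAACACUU
miR-3592: AAGUGUUGUCCGUGAAUGAUU
miR-369-5p: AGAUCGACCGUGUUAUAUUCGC
miR-3578: GCGAAUAUAACACGGUCGAUCU
miR-539-5p: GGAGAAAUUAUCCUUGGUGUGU
miR-3576: ACACACCAAGGAUAAUUUCUCC
miR-409a-3p: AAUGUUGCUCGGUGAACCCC
miR-409b: aGGGGUUCACCGAGCAACAUUcg

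In the 5 pairs shown, chosen after their values were seen, the row on the minus strand held most or all of the reads. miR-3543 had 2265 RPM in B[a]P and 1637 RPM in control, more than any cluster member except miR-127-3p. In reads miR-3543 had 32523 in B[a]P and 26622 in control, beside the 2211 in B[a]P and 1653 in control of miR-434-3p. miR-382-3p, miR-369-5p and miR-539-5p were listed at 0 in both libraries, while their complements had many reads. miR-3592 had 222 RPM in B[a]P and 187 RPM in control, miR-3578 308 RPM in B[a]P and 252 RPM in control, and miR-3576 33.2 RPM in B[a]P and 26.9 RPM in control. The fifth pair lies within the name list: miR-409b had 285 RPM in B[a]P and 261 RPM in control, and miR-409a-3p had 35.0 RPM in B[a]P and 30.1 RPM in control. Other pairs went the opposite way. The plus-strand miR-337-5p had 2026 reads in B[a]P and 1913 in control, and its partner miR-3544 had 17 in each. miR-380-5p had 1094 reads in B[a]P and 1155 in control, beside 32 in B[a]P and 26 in control for miR-3579. miR-376a-3p had 9.19 RPM in B[a]P and 8.67 RPM in control, beside 1.32 RPM in B[a]P and 0.984 RPM in control for miR-3595. Within the name list, the plus-strand miR-299a-3p likewise held more reads than miR-299b-5p, its reverse complement over 19 bases.

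Counting such rows with their members, a choice made after the values were seen, gave these values. There were 7 of these rows outside the name list. With miR-3543 added, miR-434-3p had 2419 RPM in B[a]P and 1738 RPM in control, 1.39-fold (1.37 to 1.41), instead of 1.52-fold. The 5p share of Mir434 became 36.4% in B[a]P and 40.5% in control, so that its dominant arm depended on this choice. The cluster then held 6.64% of miRNA reads in B[a]P and 7.07% in control, and 44 of 57 members above the floor were below the table's median. The Mir434 hairpin is shown with both arms in capitals.
Mir434, chr6:134330402-134330482, plus strand, GRCr8: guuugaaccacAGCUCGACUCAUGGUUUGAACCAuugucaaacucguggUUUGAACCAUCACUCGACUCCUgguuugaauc

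Seeds were largely distinct. The 81 members with a sequence had 75 different seeds, and 5 seeds were shared by 2 or more members, 11 members in all. The seed AUACAAG was shared by miR-381-3p and miR-539-3p, which come from hairpins close to each other. miR-381-3p had 28.0 RPM in B[a]P and 26.1 RPM in control, and miR-539-3p 41.4 RPM in B[a]P and 35.5 RPM in control. Their reads together were 1.12-fold higher in B[a]P (1.03 to 1.23). miR-300-3p, which shares 14 bases in a row with miR-381-3p, differs within the seed and so falls outside the family. Reads of such close copies could be split between rows by the counting.
miR-381-3p: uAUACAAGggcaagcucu
miR-539-3p: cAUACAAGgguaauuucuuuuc
miR-300-3p: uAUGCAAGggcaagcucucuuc

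The other seed families each had 1 member or none above the floor. miR-299a and miR-299b lie on opposite strands of the same site and share their seeds on both arms. On the 3p arm miR-299b-3p was listed at 0 beside miR-299a-3p, and on the 5p arm miR-299a-5p had 61 reads in B[a]P and 85 in control and miR-299b-5p had 46 in B[a]P and 44 in control. miR-376b-5p had 63.6 RPM in B[a]P and 55.8 RPM in control, while miR-376c-5p, with which it shares 18 bases in a row, was listed at 0 in both. miR-494-5p, miR-496-5p and miR-410-5p share the seed GGUUGUC, and all 3 were listed at 0 in both libraries.

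The long noncoding RNA of the locus was examined in the RNA-seq libraries, where values are FPKM, a level per length of transcript and per depth. Meg3, whose transcript begins the chain of maternally expressed RNAs, had 66.9 FPKM in B[a]P and 46.6 FPKM in control. That was 1.44-fold, a log2 ratio of 0.51 on FPKM plus 1, in a table whose median gene above 1 FPKM had 0.09. Of 13261 such genes, 113 (0.852%) had a ratio as high or higher. All 11 lines for Meg3 in the separate table of long noncoding RNAs were higher in B[a]P, by 1.38- to 1.41-fold. The median over the lines of that table at 0.5 FPKM or more was 1.07-fold. The 11 Meg3 lines rest on the same libraries and are not independent of each other. The miRNAs of the cluster had a median log2 ratio of 0.24 in libraries of another assay, and the scales cannot be set against each other.

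The genes on either side of the cluster are expressed mainly from the other parental chromosome and were near the limit of the data. Dlk1, a membrane protein related to Notch ligands, had 0.5003 FPKM in B[a]P and 0.614 FPKM in control. Dio3, which inactivates thyroid hormone, had 0.705 FPKM in B[a]P and 0.798 FPKM in control. Rtl1, Rian and Mirg were looked for by name among the genes and no row was matched, so no values are given. Among 10 genes of the locus and its surroundings above 1 FPKM, Meg3 included, the median log2 ratio was 0.15 and 7 were above the table's median, where 50% of genes lie. Among these 7, Wdr25 was read from a row named Wdr25l. None of the 10 genes was 2-fold higher or lower, in a table where 0.151% of genes were 2-fold higher and 0.52% 2-fold lower. Degs2, a sphingolipid desaturase and hydroxylase further out, had 3.90 FPKM in B[a]P and 2.24 FPKM in control, a log2 ratio of 0.60. Begain, a postsynaptic protein, had 8.56 FPKM in B[a]P and 8.55 FPKM in control.

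Genes known to act on the cluster or its RNAs differed little between the libraries. Mef2 transcription factors drive the part of the cluster around Mir379 in rodent neurons. Mef2c had 17.4 FPKM in B[a]P and 14.2 FPKM in control, and Mef2a 23.5 FPKM in B[a]P and 20.7 FPKM in control. Zfp57 and Trim28, which keep imprinting marks, had 7.49 and 34.4 FPKM in B[a]P and 6.85 and 33.9 FPKM in control. Of the 7 regulators, which had a median log2 ratio of 0.11, 5 were above the table's median, where 50% of genes lie. Of 11 genes for miRNA processing, Argonaute proteins and RNA editing 8 were above it, with a median of 0.15. Dicer1, the enzyme that cuts the hairpin, had 4.75 FPKM in B[a]P and 3.95 FPKM in control. None of these genes was 2-fold higher or lower, in a table where 0.151% of genes were 2-fold higher and 0.52% 2-fold lower.

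Messenger RNAs reported as targets of cluster members in rodent neurons were also close between libraries. These values are RNA levels, and protein levels were not measured. Limk1, a kinase of the actin cytoskeleton and a target of miR-134, had 4.43 FPKM in B[a]P and 4.30 FPKM in control. Pum2, a translational repressor and another target of miR-134, had 22.1 FPKM in B[a]P and 19.8 FPKM in control. Sv2a, a synaptic vesicle protein and target of miR-485, had 90.1 FPKM in B[a]P and 77.1 FPKM in control. Of 6 such genes, 4 were above the table's median ratio, where 50% of genes lie, and the median log2 ratio of the 6 was 0.15. Beside these, 6 neuron markers above 1 FPKM, Snap25 and Map2 among them, had a median log2 ratio of 0.23, 5 astrocyte markers 0.34 and 6 oligodendrocyte markers −0.22. Their part in the ratios of Meg3 and the other genes was not tested.

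**Figure D5:**
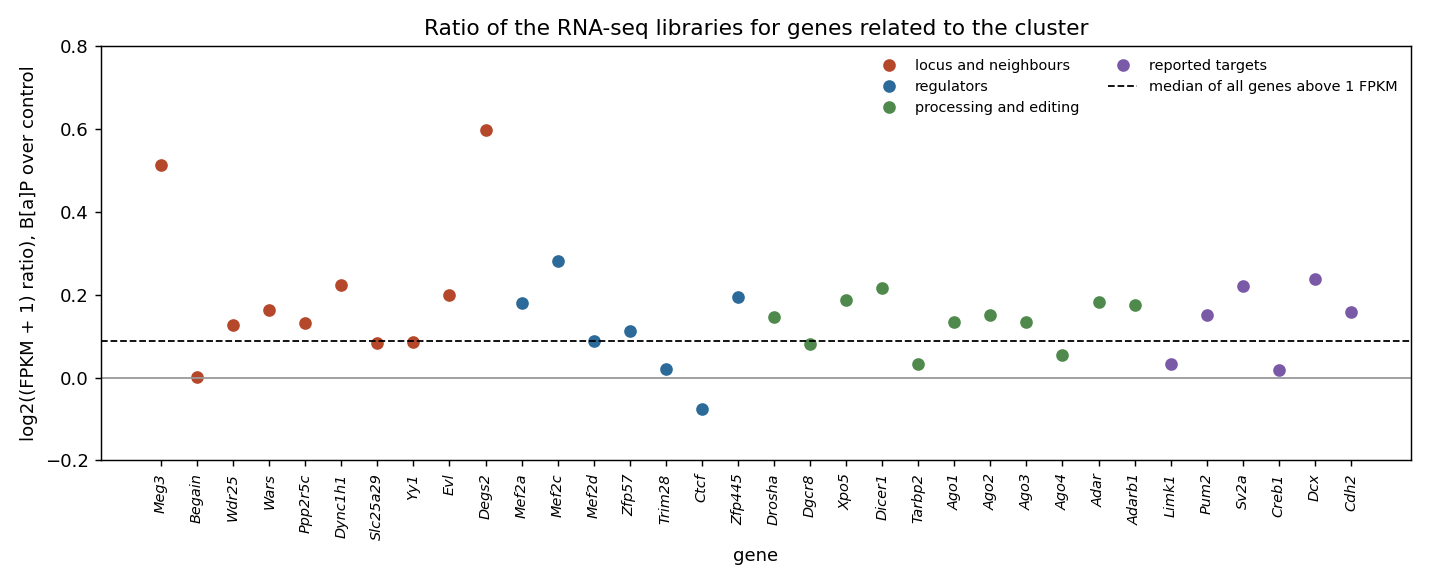
The log2 ratio of FPKM plus 1, B[a]P over control, for genes of the locus and its surroundings, regulators, processing and editing genes and reported targets above 1 FPKM, 1 library per group. Meg3 at 0.51 and Degs2 at 0.60 stand above the rest, and the dashed line is the median of all genes above 1 FPKM, 0.09.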

How the data were processed

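miRNA-seq and RNA-seq libraries of rat hippocampus were compared, 1 per group. The authors deposited miRNA values as RPM of the library total; every value was a whole multiple of 1 read within 0.001 read, which gave the read numbers and totals. The unit of the authors' gene and lncRNA tables was not stated and was inferred from the values as FPKM, as deposited; their depth is unknown. Per the submitters' processing notes, bcl2fastq and the builds rn6 and rn5 were used, with no role for each; the aligner, counter, miRNA annotation and strand setting are not given in the sources used here. Counting of reads shared by near-identical miRNAs is likewise not given.

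Ratios are B[a]P over control on log2(value + 1), for rows at 10 RPM (1 FPKM) or more in either library. Folds and their intervals use reads (exact conditional binomial), arm shares exact binomial intervals, at 95%. The interval and read-recovery steps were tested on simulated data: 765 of 765 read numbers were recovered in each library, and 188 of 200 intervals (94%) held the true fold. The simulated reads varied by counting error alone and kept the 10-read minimum that the recovery assumes. This checked the code, and does not show how well the intervals fit real libraries. In place of a test, a row was called at 2-fold. Hairpins of the whole table were paired by their 5p and 3p row names. Sequences, positions and the name Meg3 (listed under RGD1566401) came from RefSeq tables of GRCr8, matched by name; no coordinate was moved between builds. Shared stretches were counted from 14 bases on the same strand and 15 as reverse complements.

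Named members were the 12 most abundant, the 6 highest and 6 lowest ratios, hairpins with a 5p share of 20% to 80%, and seed families of 2 or more; antisense rows were added after their values were seen. The members and lists were chosen with earlier results of these data known. Alternatives were 2 other scalings, pseudocounts of 0.1 and 5, no floor or 100 RPM, the more abundant arm, the cluster without miR-127-3p or without choroid plexus miRNAs in the denominator, and antisense rows counted with members. The methylation libraries were not used, since no annotation of their build was at hand. Python packages were numpy 2.4.6, pandas 2.3.3, scipy 1.17.1 and matplotlib 3.10.9.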

Additional observations from a re-analysis of the deposited data

How the results depend on the processing

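Scaling set the direction of the cluster. Its median log2 ratio, 0.24 as deposited, was −0.12 when the libraries were scaled by the median of ratios, with 40 of 53 members below 0, and −0.092 when scaled to the miRNA reads, with 38 below 0. These scalings moved the median of the table by −0.36 and −0.33. Under the pseudocounts, floors, arm choice, removal of miR-127-3p and addition of antisense rows the median stayed between 0.21 and 0.26, and the count of 2-fold members, on log2(RPM + pseudocount), was 0 under every alternative run. With no floor, the fold from reads was 2.09 for miR-487b-5p (24 reads in B[a]P and 13 in control, 1.02 to 4.47), and miR-544-3p had 0 reads in B[a]P and 15 in control. The cluster's share of miRNA reads in B[a]P over that in control, 0.928, was 0.943 without the choroid plexus miRNAs, 0.938 without miR-127-3p and 0.939 with antisense rows added, a setting chosen after seeing the data. The log2 ratio of Meg3, 0.51, was 0.41 when scaled by the median of ratios. Of 34 named members above the floor, 32 were above 0 as deposited and 10 and 11 under the 2 other scalings.

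No paired analysis was possible because each group had 1 library per assay, so leaving out a library was not possible either. Counting error was widest for members near the floor, and no value above 0 was under 10 reads.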

Other observations

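The annotated span of the cluster also held 17 miRNA rows outside the name list, and 8 of them were above the floor. On the plus strand, miR-341, a rodent miRNA of the Meg3 side, had 810 RPM in B[a]P and 685 RPM in control, 1.18-fold (1.15 to 1.21). miR-6331 had 56.2 RPM in B[a]P and 55.1 RPM in control. miR-673-3p had 16.6 RPM in B[a]P and 16.7 RPM in control, and miR-1193-3p 13.6 RPM in B[a]P and 13.2 RPM in control. The 4 others, miR-3543, miR-3578, miR-3592 and miR-3576, are annotated on the minus strand. The 8 rows had a median log2 ratio of 0.24 and a range of −0.01 to 0.47, and 7 of them were below the table's median. miR-3543 was the exception, at 1.38-fold (1.36 to 1.41).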
